A study of Nicotiana tabacum with 36 samples.

Results

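The genes at the end of chromosome 8 of tobacco (Nicotiana tabacum) were taken as the gene models of the count table that lie on chromosome 8 beyond a fixed position near its end, which gave 60 of 35519 genes, from base 105222403 to base 108381000 of the Nitab-v4.5 positions. Within them, 14 genes that start between 108.01 and 108.29 Mb are called the stretch here, and the other 46 are its flanks, 40 on the proximal side and 6 on the distal side. The region was chosen by the counts themselves: the stretch had almost no counts in one cultivar, Yanyan97. Differences in level between the cultivars among these 60 genes, and counts of genes called for them, are therefore given as a description only. Changes with cold within a cultivar, and the difference between those changes in the flanks, were not used in the choice and were tested. All 14 stretch genes are models of one scaffold, Nitab4.5_0002315.

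RNA-seq was run on 36 leaf samples of seedlings with 5 leaves, from Taiyan8 (TT), which is susceptible to cold, and Yanyan97 (YT), which resists it. Each cultivar was sampled before (0 h, CK) and after 0.5, 1, 2, 4 and 8 h at 4 °C, with 3 biological replicates for each of the 12 groups. Both cultivars are unmodified varieties grown in the same way, and no transgene or agent other than cold was used. No warm plants of matching hours were analysed here, so cold and time of day cannot be told apart in any change against 0 h.

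Tobacco is an allotetraploid: it carries related chromosome sets from different ancestral species, so that many genes exist as a pair of similar copies on different chromosomes. Reads from one copy may map to the other or be lost, and counts of single copies carry that uncertainty. Among the stretch genes that the study's tables annotate, ARR12 (Nitab4.5_0002315g0010, placed in the ARR-B family) is in Arabidopsis a type-B response regulator, a transcription factor of cytokinin signalling. TIL (Nitab4.5_0002315g0020) is a lipocalin, a small protein that binds lipophilic molecules at membranes and is induced by temperature stress in other plants. ASB1 (Nitab4.5_0002315g0030) is the beta subunit of anthranilate synthase, which starts the branch of metabolism that makes tryptophan. SnRK (Nitab4.5_0002315g0110) is an SNF1-related protein kinase, a family that carries energy, abscisic acid and osmotic stress signals. The other 10 stretch genes are known here by their IDs only.

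Gene counts totalled 15484160 to 26691552 per library (median 24424913.5), with the lowest total in replicate 3 of YT at 4 h and the next at 22239372. Levels are given as CPM, the counts scaled by each library's total with TMM factors, and one count corresponded to 0.0352 to 0.0644 CPM. Of the 60 genes, 47 passed the expression filter and were tested, 12 of 14 in the stretch and 35 of 46 in the flanks. The 2 stretch genes that did not pass, Nitab4.5_0002315g0080 and Nitab4.5_0002315g0040, reached at most 9 and 5 counts in a TT library, and 7 flank genes had no count in any library. Among the YT libraries, 5 stood apart in the stretch (replicate 3 at 0.5 h, replicate 3 at 1 h, replicate 2 at 4 h, and replicates 2 and 3 at 8 h), as described with the residual counts.

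The 12 tested stretch genes were counted in all TT libraries and nearly uncounted in YT. ARR12 had 279 to 597 counts in the 18 TT libraries (median 430.5) and 0 to 4 in the 18 YT libraries. TIL ranged from 227 to 533 counts in TT and from 0 to 2 in YT. For ASB1 the TT range was 337 to 717 counts and the YT range 0 to 2. SnRK, with the highest mean TPM of the stretch in TT, had 826 to 13327 counts in TT and 0 to 38 in YT. For each of these genes the lowest TT library lay far above the highest YT library. In bulk RNA, fewer cells that express a gene and less RNA in each cell cannot be told apart.

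Summed over libraries and set per unit of depth, ARR12 was 507-fold higher in TT (95% exact counting interval 312 to 887), TIL 1476-fold (632 to 4547), ASB1 1406-fold (645 to 3831) and SnRK 659-fold (565 to 774). These intervals cover counting error only, and the 5 YT libraries named above weigh heavily in the ratios: 158 of the 163 YT counts of SnRK were theirs. Without them, an alternative added after the data were seen, SnRK was 15589-fold higher in TT on 5 YT counts (6680 to 48011), ARR12 841-fold (408 to 2091) and ASB1 3058-fold on 2 YT counts (846 to 25257). TIL, with no count left, was at least 1784-fold higher against a floor of 3 counts over the group. The gene Nitab4.5_0002315g0070 had 690 counts over the TT libraries and none in YT, so it was at least 237-fold higher in TT against a floor of 3 counts over the group. The remaining tested genes, with the exception of Nitab4.5_0002315g0060, had 1 to 5 counts in YT and ratios with wide intervals, from 182-fold (Nitab4.5_0002315g0100, 70.8 to 671, on 4 counts) to 820-fold (Nitab4.5_0002315g0090, 147 to 32412, on 1 count). Leaving out YT 1 h replicate 3 gave 685-fold for Nitab4.5_0002315g0100, and leaving out YT 0.5 h replicate 3, which held the single count of Nitab4.5_0002315g0090, gave at least 258-fold. The order of these ratios is thus not resolved. Their TT means were 1.64 ± 0.79 CPM for Nitab4.5_0002315g0100, 1.87 ± 0.85 for Nitab4.5_0002315g0090, 2.77 ± 1.29 for Nitab4.5_0002315g0050, 4.26 ± 0.93 for Nitab4.5_0002315g0130, 5.74 ± 2.04 for Nitab4.5_0002315g0120 and 7.48 ± 2.71 for Nitab4.5_0002315g0180 (SD, n = 18). The summed level of the 14 genes in YT was 0.287% of that in TT by CPM and 0.384% by the deposited TPM values.

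**Figure D1:**
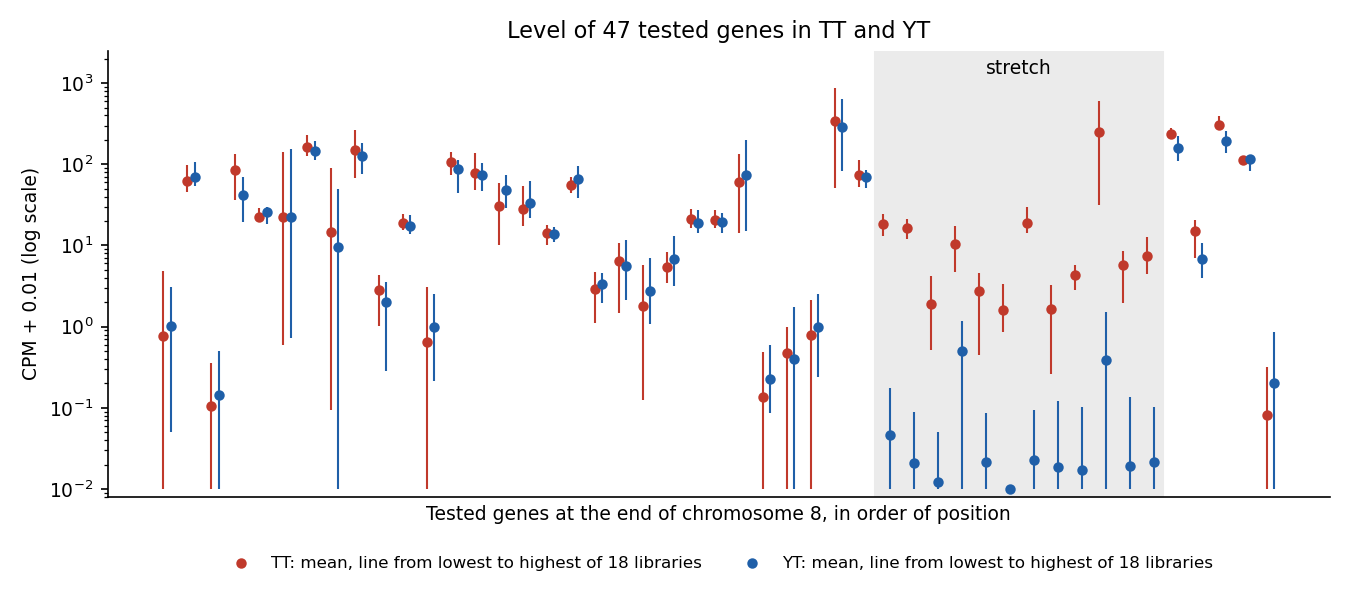
Mean CPM of the 47 tested genes at the end of chromosome 8, in order of position, on a log axis after adding 0.01, with lines from the lowest to the highest of the 18 TT libraries (red) and the 18 YT libraries (blue). In the shaded stretch every blue point lies below its red line, for example ARR12 with 18.2 CPM in TT and 0.0364 in YT, while 28 of 35 flank genes differ by less than 1 on the log2 scale in their mean over time points.

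All 12 tested stretch genes were called lower in YT at all 6 time points (edgeR quasi-likelihood test, log2 fold change beyond 1 in size and Benjamini-Hochberg adjusted p under 0.05), against 0.425% of the 23740 genes tested. Since this contrast chose the region, the count describes the choice. With 3 counts or fewer in each of the 18 YT libraries, 11 of 14 stretch genes lay at the floor, and 2 of 14 had no YT count at all. The 3 genes above the floor were ARR12 with a highest count of 4, Nitab4.5_0002315g0060 with 33 and SnRK with 38.

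At both ends, the near absence of YT counts began or stopped between neighbouring tested genes. On the proximal side the first stretch gene, ARR12 (chromosome 8, 108010054 to 108014309, build Nitab-v4.5), follows Nitab4.5_0004783g0010 (107881193 to 107892528) after a gap of 117.5 kb. Within this gap the scaffold changes from Nitab4.5_0004783 to Nitab4.5_0002315, so the proximal end cannot be placed more closely. The level of Nitab4.5_0004783g0010 was 72.9 ± 15.3 CPM in TT and 70.2 ± 8.96 in YT (SD, n = 18), with ranges that overlapped. On the distal side the last stretch gene, Nitab4.5_0002315g0180 (108277284 to 108286630), is followed after 33.6 kb by Nitab4.5_0002315g0150 (108320201 to 108322917), the next tested gene. That gene had 237 ± 26.1 CPM in TT and 159 ± 29.3 in YT. Between these last genes lies Nitab4.5_0002315g0200, which had no count in any of the 36 libraries, so the distal end cannot be placed more closely. The stretch covers 276.6 kb and continues on the same scaffold, since the 6 distal flank genes are also models of Nitab4.5_0002315.

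The distal neighbours did not share one direction, and those lower in YT were so by far less than the stretch genes. Nitab4.5_0002315g0150 had a mean log2 difference (YT minus TT over the 6 time points) of -0.58, Nitab4.5_0002315g0140 of -0.63 and Nitab4.5_0002315g0170 of -1.18, while Nitab4.5_0002315g0190, the next tested gene, was at 0.03. The last, Nitab4.5_0002315g0160, with 0 to 8 counts in TT and 0 to 19 in YT, was at 1.38. In Nitab4.5_0002315g0170 the 3 libraries at 0 h held 13.8, 14.96 and 17.9 CPM in TT and 5.72, 6.30 and 6.87 in YT, and the cultivars did not overlap at that time. The call between the cultivars was made for Nitab4.5_0002315g0170 at 4 of 6 time points and for none of the other 4 at any. Over the 35 tested flank genes the mean log2 difference had a median of -0.04, and 28 lay within 1 of 0.

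At 1 or more of 6 time points 9 of 35 flank genes were called between the cultivars, 5 in the direction of YT and 4 of TT, against 16.8% of all tested genes. None was called at all 6 time points by edgeR or by DESeq2, against 1.07% of all tested genes, and 4 of 35 had an unadjusted edgeR p under 0.05 at all 6, against 3.01% of all tested genes. The proximal gene Nitab4.5_0004234g0050 came next to Nitab4.5_0002315g0170 in the number of calls, at 3 of 6 time points. It held 101 to 130 CPM in TT at 0 h and 52.2 to 61.2 in YT.

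Outside the stretch, a gene at 3 counts or fewer in every YT library and with a mean of at least 1 CPM in TT was rare. The whole table held 17 such genes, or 0.0821% of the 20709 genes that reached a mean of 1 CPM in either cultivar. Of these 17, 9 were stretch genes, none was in the flanks, and the other 8 lay on chromosomes 12, 17 and 18. Among those 8, Nitab4.5_0001840g0010, Nitab4.5_0001840g0070 and Nitab4.5_0001840g0110 share a scaffold on chromosome 12, between bases 112299649 and 112662886, as runs of 1 gene each. Counted along the chromosomes among expressed genes, the 17 formed 11 runs, and the 3 runs of more than 1 gene were all in the stretch, the longest with 5 genes from Nitab4.5_0002315g0050 to Nitab4.5_0002315g0130. Breaks between these runs fell at Nitab4.5_0002315g0060 and SnRK. In the opposite direction, 20 genes were at the floor in TT and expressed in YT, and none of them was among the 60. As the stretch was chosen for this pattern, its share of the 17 is a description.

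Residual YT counts did not follow one pattern in all genes. SnRK had 38 counts in YT at 0.5 h replicate 3, 26 at 1 h replicate 3, 30 at 4 h replicate 2 and 32 in each of replicates 2 and 3 at 8 h. In the other 13 YT libraries it had 2 counts or fewer. The same 5 libraries held 4 to 10 counts on the other 12 genes summed (SnRK and Nitab4.5_0002315g0060 aside), against 0 to 3 in each of the 13 others. Of the counts on SnRK and those 12 genes, SnRK made up 88.4% in YT 0.5 h replicate 3, where the TT libraries of that hour had 29.4 to 33.4%, and 72.2% in YT 1 h replicate 3, where those of TT had 50.7 to 53.6%. Its share was 88.2% in YT 4 h replicate 2 (TT 84.9 to 88.8%), and 32 of 40 counts and 84.2% in YT 8 h replicates 2 and 3 (TT 84.9 to 87.1%). The YT shares rest on 34 to 43 counts a library. Where these counts came from was not tested. Without the 5 libraries, 13 of 14 stretch genes were at the floor in YT, an alternative added after the data were seen.

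The exception was Nitab4.5_0002315g0060, with 110 to 391 counts in TT and 0 to 33 in YT (median 9.5). It had more than 3 counts in 16 of 18 YT libraries, and its mean in YT was 4.64% of that in TT. Its YT counts were highest at 0 h replicate 2 (33) and 0.5 h replicate 1 (30), and it had none in 2 of the 5 libraries in which SnRK was counted. The YT libraries that were high for SnRK were thus not those that were high for Nitab4.5_0002315g0060.

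**Figure D2:**
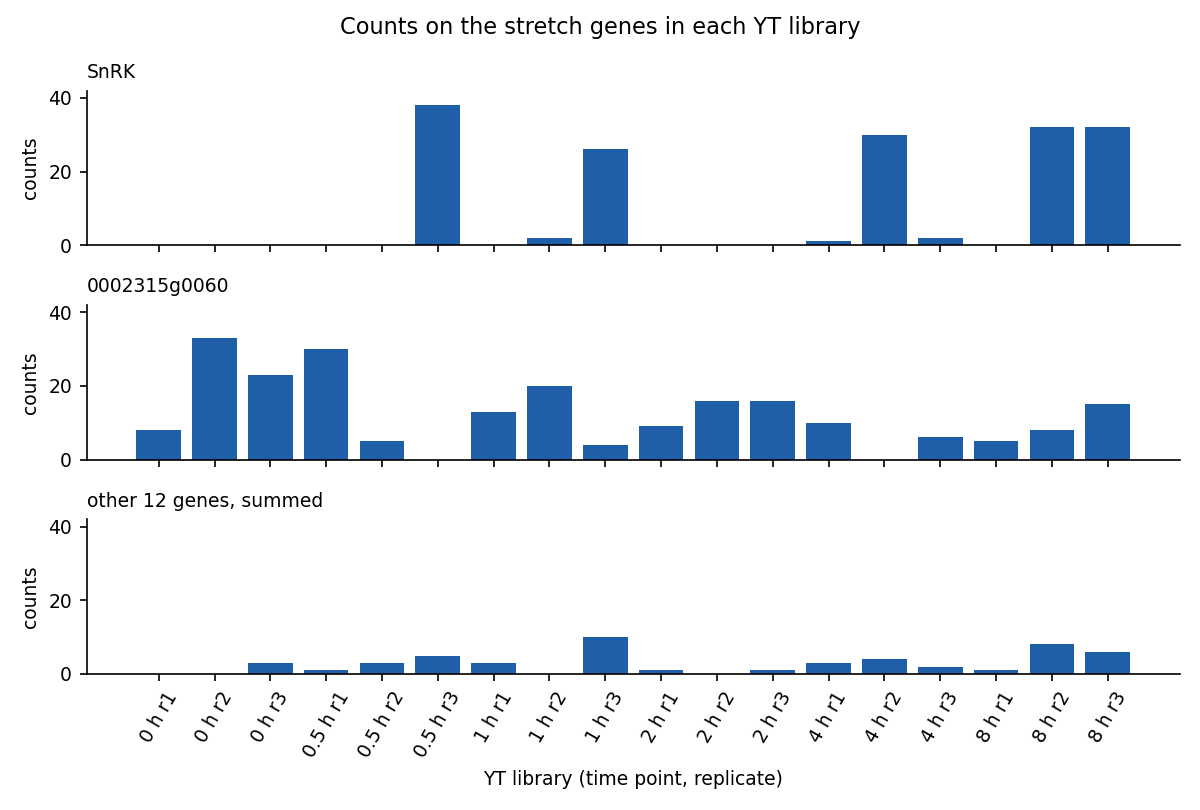
Counts on SnRK, on Nitab4.5_0002315g0060 and on the other 12 stretch genes summed, in each of the 18 YT libraries (bars, linear axis from 0). SnRK rises above 2 counts in 5 libraries, which also hold the 5 highest sums of the other 12 genes, whereas Nitab4.5_0002315g0060 is counted across most libraries.

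The cold response of the stretch could be followed in TT, a comparison that the choice of the region did not use. Per transcript length, the tested stretch genes had mean TPM values from 0.893 to 229.5 in TT with a median of 4.66, against a median of 22.4 in the tested flank genes and 10.8 over all tested genes. SnRK rose strongly with cold, and Nitab4.5_0002315g0180 rose and Nitab4.5_0002315g0050 fell at 8 h. These were 3 of 12 tested genes called at 1 or more of 5 time points, against 29.7% of all tested genes. The median log2 change of the 12 genes at 8 h was -0.33, and that of all tested genes -0.05.

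The 3 TT libraries before cold held 36.01, 42.4 and 42.6 CPM of SnRK, and those of 0.5 h held 31.7, 38.3 and 40.03. At 1 h its level was 73.5, 78.5 and 90.4 CPM. It then reached 247, 373 and 416 CPM (2 h), 445, 557 and 603 (4 h) and 414, 434 and 565 (8 h). From 1 h on, every library lay above every library at 0 h. The log2 change against 0 h was 1.00 ± 0.57 (SE) at 1 h, which was not called (adjusted p = 0.238), 3.10 ± 0.61 at 2 h (adjusted p = 0.000322), 3.73 ± 0.63 at 4 h (adjusted p = 4.57e-05) and 3.55 ± 0.62 at 8 h (adjusted p = 4.92e-05, all edgeR). In this fit the spread of each gene was estimated over all 36 libraries, YT included, where SnRK had 0 to 38 counts. The SE and p-values of stretch genes in TT thus do not measure the spread of TT alone. With only the libraries compared in the edgeR fit the adjusted p at 8 h was 2.62e-07, and DESeq2 did not call the change at 2 h (adjusted p = 0.0675).

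The other called changes were smaller and less firm. Nitab4.5_0002315g0180 had 4.55, 4.65 and 6.59 CPM in TT at 0 h and 10.7, 11.5 and 12.6 at 8 h, without overlap, and its log2 change was 1.14 ± 0.40 (edgeR adjusted p = 0.0234). Nitab4.5_0002315g0050 went from 3.64, 4.22 and 4.36 CPM to 0.440, 1.36 and 1.94, a log2 change of -1.70 ± 0.62 (edgeR adjusted p = 0.0283). Leaving out a single TT library at 0 h or 8 h ended the call of Nitab4.5_0002315g0050 in 4 cases and that of Nitab4.5_0002315g0180 in 3. Without TT 0 h replicate 1, SnRK was the one stretch gene still called.

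ARR12, TIL and ASB1 were not called at any time point in TT. ARR12 went from 20.2 to 24.7 CPM before cold to 13.1 to 20.8 after 8 h, a log2 change of -0.42 ± 0.30. For TIL the ranges were 18.997 to 21.1 and 17.2 to 18.2 CPM (-0.20 ± 0.27). ASB1 had 21.5 to 30.1 and 14.3 to 16.1 CPM (-0.70 ± 0.27), without overlap, and its adjusted p of 0.0388 (edgeR) went with a change short of the fold threshold.

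In YT the stretch gives no usable response. SnRK had no count in the 3 libraries before cold and 0, 32 and 32 counts after 8 h, and this was the single call among the stretch genes in YT. Both counted libraries belong to the 5 named above, and a fitted fold change from 0 has no firm size. A difference in response between the cultivars could not be assessed for the stretch genes.

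For 11 of the 14 stretch genes, a gene model with a similar order of exon lengths was found on chromosome 21, by a comparison that used no counts but was made after the stretch was known. In 6 cases the best match among all other chromosomes was on a single scaffold, Nitab4.5_0001478. A match needed 3 or more exon lengths shared in order, making up at least 0.5 of the exon lengths of both models pooled. Another 5 pairs were then found within that scaffold at a lower limit. The 11 pairs lie in the same order on both chromosomes, on chromosome 21 from 79597213 to 80088538. In 8 of the 11 pairs the number of exons is the same. Shared exon lengths and order describe the models, and sequences were not compared. For ASB1 and SnRK the study's tables give the chromosome 21 partners, Nitab4.5_0001478g0080 and Nitab4.5_0001478g0040, the same names. The partner of ARR12, Nitab4.5_0001478g0200, is listed there as G2-like, a family that shares its DNA-binding domain type with the ARR-B factors.

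These partners on chromosome 21 were higher in YT. Of 11 tested, 10 were called higher in YT at 1 or more of 6 time points (edgeR), against 9.22% of all tested genes. At all 6 time points 2 of 11 were called higher, against 0.649% of all tested genes. The mean log2 difference ranged from 0.74 to 1.21 with a median of 1.04, against 0.02 over all tested genes. All 11 were above 0 at every time point, against 8.98% of all tested genes. Whether some of these reads came from other copies was not tested.

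The partner of ARR12 was between 16.6 and 32.5 CPM in the TT libraries and between 40.8 and 68.1 in YT, and the cultivars did not overlap. Its log2 difference was 1.33 ± 0.14 at 0 h (adjusted p = 5.67e-08) and 1.03 ± 0.14 at 8 h (adjusted p = 5.54e-06, both edgeR). The study used the same samples, so its listing of this gene and these p-values are not independent of each other. The ASB1 partner went from 16.1 ± 2.37 CPM in TT to 31.7 ± 3.08 in YT (SD, n = 18), also without overlap. The study picked this copy for its pattern in these samples, so it is among the 10 but is no independent evidence of direction, and no test of it is given. For Nitab4.5_0001478g0010, the partner of Nitab4.5_0002315g0180, the means were 12.6 ± 3.73 and 28.7 ± 6.95 CPM, and it was called at all 6 time points. The one partner not called at any time was Nitab4.5_0001478g0050, with 2.99 ± 1.42 CPM in TT and 6.17 ± 3.84 in YT.

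When the CPM of both copies were added in each library, the cultivars came closer together in most pairs, but not in that of SnRK. ARR12 with its partner summed to 41.8 ± 6.49 CPM in TT and 52.2 ± 8.70 in YT, and ASB1 with its partner to 35.2 ± 5.21 and 31.8 ± 3.07. The ratio of the YT to the TT sum ran from 0.680 to 1.43 over the 11 pairs with a median of 1.25. For the partner alone the ratio ran from 1.37 to 2.28 with a median of 2.03. The sum was lower in YT for the pairs of Nitab4.5_0002315g0130 (ratio 0.680), SnRK (0.728), ASB1 (0.903) and Nitab4.5_0002315g0060 (0.942). In the SnRK pair the partner alone had a ratio of 1.37, so the difference changed direction and kept a similar relative size. Over all time points together, ranges of the summed levels overlapped between the cultivars in 11 of 11 pairs. Those of the partner alone overlapped in all but 2. In the flank pairs described below, the sums overlapped in 10 of 10 and the partners alone in all but 1, so such overlap is not particular to the stretch. Within single time points the picture varied by pair. The sums did not overlap at 6 of 6 time points for the TIL pair and at 4 of 6 for the pairs of ARR12 and Nitab4.5_0002315g0130. For the pair of Nitab4.5_0002315g0070 they were apart at 0 of 6. Sums of the flank pairs were apart at 0 to 5 of 6. The chromosome 8 copy held 32.4 to 66.2% of the summed CPM in TT, with a median of 42.9%. These sums are given as a description, since the chromosome 8 copy belongs to the choice of the region.

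Models paired by the same first rule with flank genes served as a comparison. The sets are not fully alike, since 5 of the 11 stretch pairs came from the later search within a single scaffold. Partners in the 6 stretch pairs of the first rule had mean log2 differences from 0.74 to 1.21. The 10 partners of flank genes lie on several chromosomes, 6 of them on chromosome 21. Of the 10, 2 were called higher in YT at 1 or more time points, against the same 9.22% of all tested genes, and the median of their mean log2 differences was 0.19, against 0.02. The ratio of summed levels had a median of 1.05 and ran from 0.815 to 1.28. The largest difference was in Nitab4.5_0000073g0340, the partner of Nitab4.5_0004234g0130, with 7.68 to 34.5 CPM in TT and 62.6 to 143 in YT. Its chromosome 8 copy was at 164 CPM in TT and 146 in YT. Nitab4.5_0000101g0230, the partner of Nitab4.5_0002315g0190, had means of 2.20 CPM in TT and 3.67 in YT. Its mean log2 difference was 0.85, and it was called higher in YT at 2 of 6 time points. The lowest mean log2 difference was -0.40, in Nitab4.5_0000097g0180, the partner of Nitab4.5_0009314g0040. Summed levels of that pair were apart at 5 of 6 time points, with a YT to TT ratio of 0.815.

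On chromosome 21 the higher level in YT was not limited to the partners. Of the 21 tested genes of scaffold Nitab4.5_0001478, 20 had a mean log2 difference above 0, and 19 of 21 had one above 0.7, against 8.22% of all tested genes. The exceptions were Nitab4.5_0001478g0220 at 0.06 and Nitab4.5_0001478g0110 at -0.96. Calls were fewer than among the partners. Of the 10 tested scaffold genes that are not partners, 3 were called higher in YT at 1 or more time points, against 9.22% of all tested genes. Of the 21, 1 was called lower, and calls in either direction made up 16.8% of all tested genes. Among the 20 tested genes before the scaffold 2 lay above 0.7 and the median was -0.02, and among the 20 after it 4 lay above 0.7 and the median was 0.03. The number of neighbours and the limit of 0.7 were set after the values were seen, so this is a description.

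**Figure D3:**
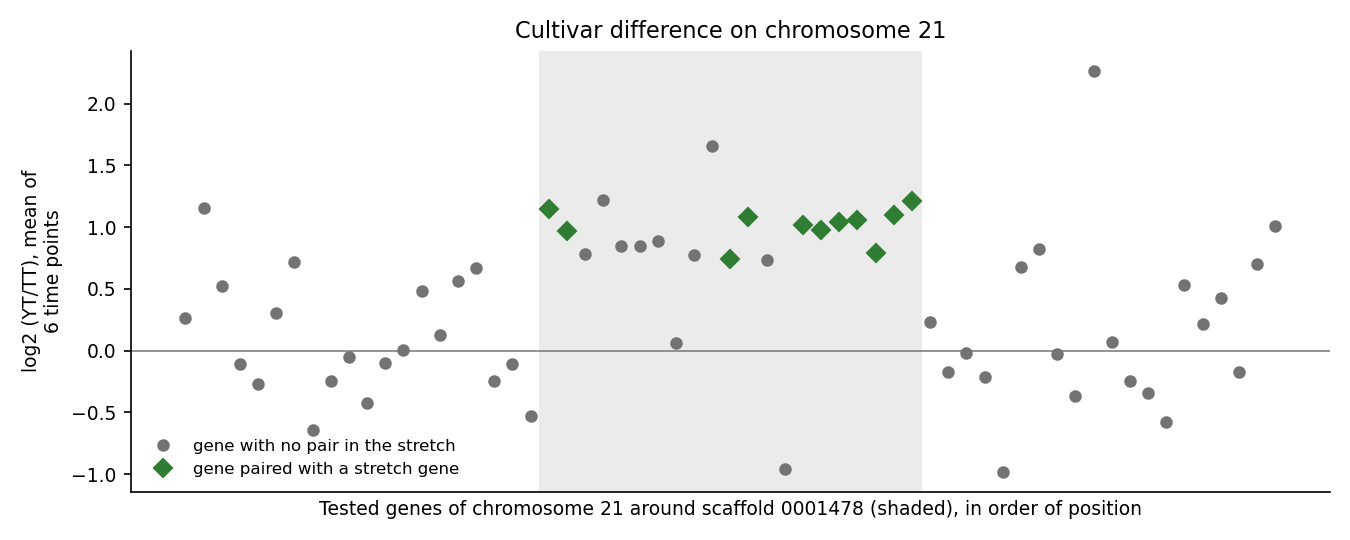
Mean log2 difference between the cultivars (YT over TT, mean of 6 time points) for the 21 tested genes of chromosome 21 scaffold Nitab4.5_0001478 (shaded) and the 20 tested genes on each side, in order of position, with partners of stretch genes as green diamonds. The 11 diamonds lie between 0.74 and 1.21, while the medians of the neighbours are -0.02 and 0.03.

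Both SnRK copies rose over the cold series in TT. The chromosome 21 copy, Nitab4.5_0001478g0040, rose in TT from 10.8, 15.1 and 18.1 CPM to 552, 623 and 768 after 8 h, a log2 change of 5.47 ± 0.28 (edgeR adjusted p = 9.12e-15), beside 3.55 ± 0.62 for the chromosome 8 copy. In YT it rose from 23.8, 25.4 and 27.4 CPM to 829, 873 and 1092, a log2 change of 5.19 ± 0.28 (edgeR adjusted p = 1.52e-14). The difference between these responses was -0.28 with an adjusted p of 0.649 (edgeR). In TT the chromosome 8 copy was the higher one at 0 h and the lower one at 8 h, in every library of both groups. Of the 11 partners, 5 were called in TT at 1 or more of 5 time points, against 29.7% of all tested genes, and 4 in YT, against 22.4%.

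**Figure D4:**
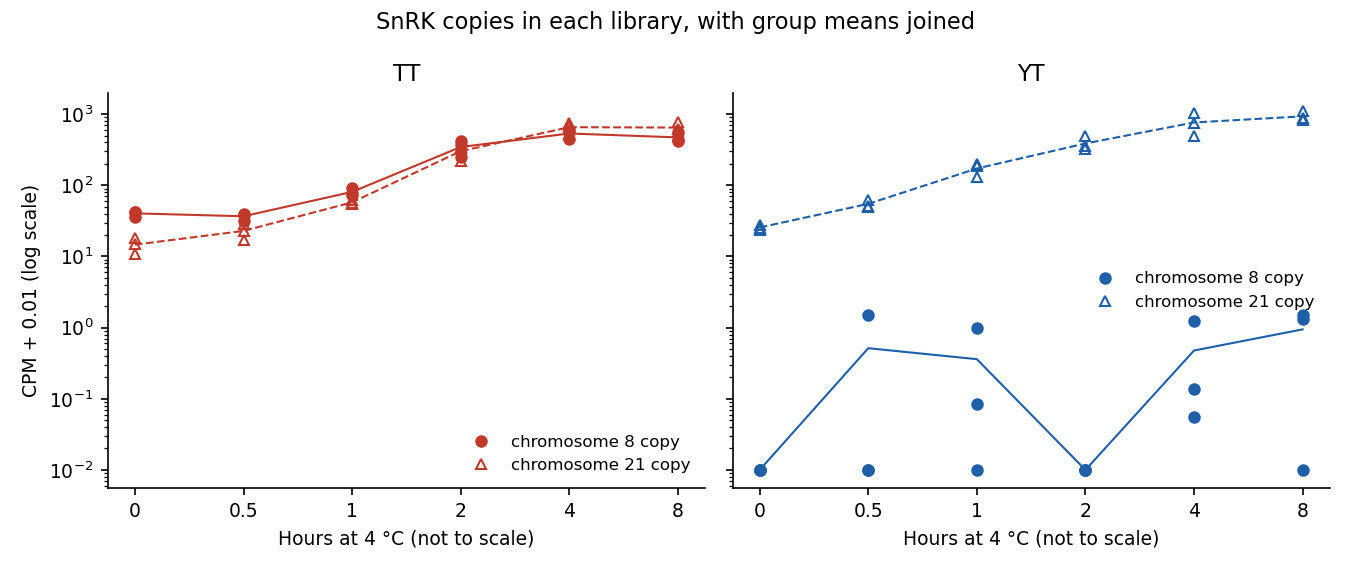
CPM of the chromosome 8 SnRK (filled circles, solid line through group means) and its chromosome 21 copy (open triangles, dashed line) in each TT library (left) and YT library (right), on a log axis after adding 0.01. Both copies rise in TT, and in YT the chromosome 21 copy rises to between 829 and 1092 CPM at 8 h while the chromosome 8 copy stays at or below 1.51 CPM.

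Some flank genes were called against 0 h in each cultivar, in shares not far from those of all tested genes. In TT 13 of 35 tested flank genes were called at 1 or more of 5 time points, 6 up and 7 down, against 29.7% of all tested genes. In YT 8 of 35 were called, 4 up and 4 down, against 22.4%. The median log2 change of the flank genes at 8 h was -0.12 in TT and -0.02 in YT, near those of all tested genes at -0.05 and -0.02.

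An annotated Tify gene and a kinase rose in both cultivars. The Tify gene Nitab4.5_0004234g0080, from the family that includes the JAZ repressors of jasmonate signalling, went from 0.582, 0.755 and 2.03 CPM in TT to 15.6, 92.8 and 140.4 after 8 h. The YT libraries held 0.717, 1.20 and 1.56 CPM before cold and 31.7, 47.2 and 65.7 after 8 h. The groups did not overlap, and the log2 change was 6.21 ± 0.86 in TT (adjusted p = 9.97e-07) and 5.37 ± 0.83 in YT (adjusted p = 7.08e-06, both edgeR). The change in TT was 5.59 when replicate 1 of 8 h was left out and 6.95 when replicate 1 of 0 h was, and it was called in both cases. Its replicates spread widely, with 10.7, 18.03 and 154 CPM in YT at 4 h.

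The kinase Nitab4.5_0009314g0050, listed in the study's tables as a Plant External Response Like Kinase, increased at each step of the series in its group means. Before cold it stood at 14.2 to 16.4 CPM in TT and 15.03 to 16.4 in YT, and after 8 h at 113 to 133 and 140.1 to 181 CPM. Log2 changes were 2.98 ± 0.28 in TT (adjusted p = 7.54e-10) and 3.38 ± 0.28 in YT (adjusted p = 1.49e-10, both edgeR). Its model overlaps Nitab4.5_0009314g0020 on the other strand over 572 bases, and without strand in the counting the reads there cannot be told apart. Nitab4.5_0004391g0060 was called up at 8 h in both as well, with a log2 change in YT of 1.84 ± 0.58 (edgeR adjusted p = 0.0137). That call ended without YT 0 h replicate 3 or without YT 8 h replicate 3.

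A transient rise was seen in Nitab4.5_0004234g0120, which the naming rule did not cover and which was picked after its values were seen. It had 6 to 8 counts in the TT libraries at 0 h, 957 to 2368 at 0.5 h and 2 to 82 at 8 h. In YT it had 0 to 6 counts at 0 h, 456 to 861 at 0.5 h and 0 to 9 at 8 h. In both cultivars it was called at 0.5 and 1 h, and in YT again at 4 h, where 1 of 3 libraries held 276 counts and the others 4 and 8.

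Among the flank genes called down at 8 h, the largest fall in each cultivar was that of Nitab4.5_0004783g0020, the second tested gene on the proximal side of the stretch. In TT it fell from 682, 784 and 871 CPM to 50.3, 71.5 and 91.8 after 8 h, and in YT from 473, 506 and 639 to 81.6, 104 and 139.8, without overlap. Log2 changes were -3.45 ± 0.23 in TT (adjusted p = 1.28e-12) and -2.32 ± 0.22 in YT (adjusted p = 1.76e-09, both edgeR). Nitab4.5_0004234g0050 fell in both as well, by 1.43 ± 0.27 on the log2 scale in TT and 1.37 ± 0.28 in YT. In YT Nitab4.5_0002443g0040 fell from 1.24 to 2.36 CPM to 0.277 to 0.811, a log2 change of -1.63 ± 0.46 (edgeR adjusted p = 0.00626). The fall of Nitab4.5_0002443g0010 in TT, with 33, 23 and 78 counts before cold and 20, 0 and 4 after 8 h, was called narrowly (edgeR adjusted p = 0.0451), and the call ended without TT 0 h replicate 1 or 3, without TT 8 h replicate 2 or 3, and in 17 other settings. Its log2 change of -2.34 became -4.32 when replicate 1 of 8 h was left out and -1.73 when replicate 3 of 0 h was.

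A different response between the cultivars was called for 3 of 35 flank genes at 1 or more of 5 time points, against 7.17% of all tested genes. The fall of Nitab4.5_0004783g0020 at 8 h was smaller in YT, with a difference in log2 change of 1.14 ± 0.29 (edgeR adjusted p = 0.0191). This call ended without TT 0 h replicate 2, TT 8 h replicate 1, YT 0 h replicate 1 or YT 8 h replicate 2, or with only the libraries compared. Nitab4.5_0004234g0010 had no count in the 3 TT libraries before cold and 22, 78 and 114 after 8 h, and was at least 75.2-fold higher at 8 h against a floor of 3 counts over the group. Its YT libraries held 8, 19 and 15 counts before cold and 26, 34 and 16 after 8 h, and it was called in YT at no time. The third gene, Nitab4.5_0004783g0040, had 5, 0 and 1 counts in TT at 2 h and 23 to 25 in YT, and its call at 2 h (edgeR adjusted p = 0.0495) ended in 29 alternatives, among them the replicate block, only the libraries compared, and leaving out TT 0 h replicate 1 or 2. The difference of 4.18 became 5.89 without TT 2 h replicate 1 and 4.95 without YT 0 h replicate 2.

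**Figure D5:**
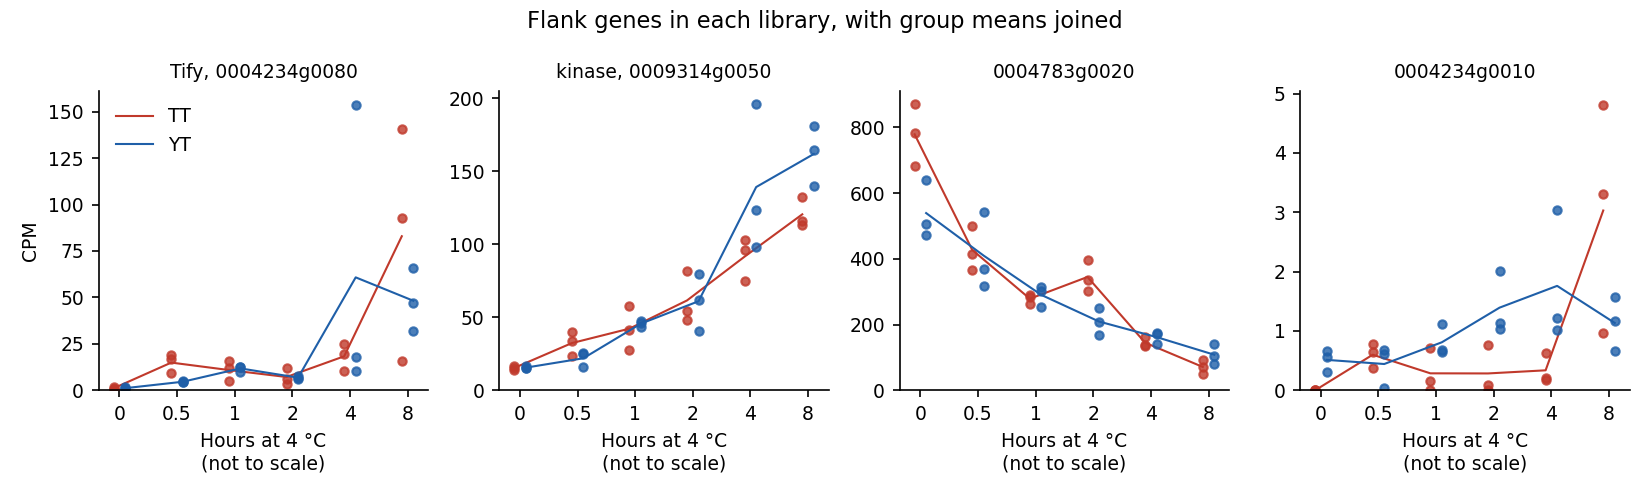
CPM in each library (points) and group means (lines) of 4 flank genes over the cold series, TT in red and YT in blue, on linear axes from 0. The Tify gene and the kinase rise, Nitab4.5_0004783g0020 falls from 682 to 871 CPM to 50.3 to 91.8 in TT, and Nitab4.5_0004234g0010 starts from 0 counts in TT.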

How the data were processed

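The labels gave the cultivar, hour and replicate of each of the 36 libraries. Per the study's methods and the submitters' processing notes, the authors checked reads with FastQC 0.11.5, trimmed them with Trim Galore 0.6.4, mapped them with HISAT2 2.0.5, dropped alignments with a mapping quality under 20 with SAMtools 1.9, and ran featureCounts 1.6.4 over the Nitab-v4.5 gene models, unstranded and without multi-mapping reads. The deposited count table is raw. For TPM, scaled for transcript length and depth, the authors ran StringTie 1.3.4d and deposited the result. Columns of no sample numbered 0.

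Counts were fitted in R 4.3.3 with edgeR 4.0.16 (filterByExpr, TMM, quasi-likelihood tests, 1 term for each of the 12 groups, all 36 libraries), and p-values were adjusted by Benjamini-Hochberg over 23740 genes; tests are two-sided. DESeq2 1.42.0 was an alternative, with its size factors in edgeR, no filter (genes with at least 1 count), only the libraries compared, the replicate number as a block, and each library left out. SE is the log2 change divided by the square root of F. CPM are counts over TMM-scaled totals. The scripts were tested on simulated data. Plots used matplotlib 3.10.9 in Python 3.11.15.

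The members and gene lists were chosen with earlier results of these data known. Named were every stretch gene, the 3 nearest tested genes on each side, the 3 largest called rises and falls at 8 h in each cultivar's flanks, up to 5 called differences in response, up to 5 flank genes called between the cultivars at all 6 time points (none qualified), and the ASB1 copy. Gene names came from the study's tables; neither the files nor the reference table pair the other IDs with names, so the leaf label was not checked by marker genes, and no sequences were printed. Labels give 3 biological replicates without saying whether these were separate plants, so p-values measure the spread between these samples. The labels and the methods differ on the growth temperature and humidity.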

Additional observations from a re-analysis of the deposited data

Results flagged for a closer look

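The response to cold differed between the cultivars in 3 flank genes by the edgeR interaction test, which is the difference of the log2 change in YT and that in TT. For Nitab4.5_0004234g0010 at 8 h the difference was -8.07 (adjusted p = 0.0141); its size depends on the prior count, since the gene had 0 counts in all TT libraries at 0 h. For Nitab4.5_0004783g0020 at 8 h it was 1.14 (adjusted p = 0.0191). For Nitab4.5_0004783g0040 at 2 h it was 4.18 (adjusted p = 0.0495), from 0 to 5 counts per library in TT and 23 to 25 in YT at that time. The causes were not tested. Groups held 3 libraries, so no search for single deviating samples within a group was made.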

How the results depend on the processing

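Stretch genes called in TT numbered 3 in all settings with all libraries and 1 to 3 when a library was left out, with 1 without TT 0 h replicate 1. With a library left out, 13 to 15 flank genes were called in TT, and for YT the range was 8 to 11. Flank genes with a different response went from 3 to 1 with only the libraries compared, and ranged from 1 to 5 with a library left out (1 without TT 0 h replicate 2, TT 8 h replicate 1 or YT 0 h replicate 1, and 5 without TT 2 h replicate 1). Stretch genes at the floor in YT numbered 2 with a floor of 0 counts and 11 or 12 without 1 YT library. Genes at the floor in the whole table numbered 4 with a floor of 0 (1 in the stretch) and 34 with a floor of 10 (10 in the stretch). They numbered 3 with at least 10 CPM in TT (2 in the stretch), and 17 to 20 with a library left out. Partners called higher in YT, alternatives added after the data were seen, numbered 9 to 11. The 20 named changes were recomputed 820 times; 66 of these values lost the call and 0 changed direction. Causes were not tested.

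The replicate numbers did not pair the libraries: of 198 pairs of libraries with the same number in different groups, 28 had a correlation of deviations over 0.1, and the median was 0.00322. With the replicate number as a block, the stretch and flank genes called under cold in TT numbered 3 and 13, those in the YT flanks 8, and those with a different response 2, where Nitab4.5_0004783g0040 lost its call (edgeR adjusted p = 0.0560). Depth limits the stretch in YT, where a floor of 3 counts is the limit.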
